A study of Homo sapiens with 15 samples.

Results

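The UFM1 conjugation pathway was followed through 7 genes in human HEK-293 cells, an embryonic kidney cell line, with and without overexpressed GEMIN5. The genes were UFM1, UFC1, UFL1, DDRGK1, CDK5RAP3, UFSP2 and ODR4, taken by name from the gene count table and the splicing table. All 7 had a row among the 21519 genes of the count table, and 296 of the 721551 splicing events carried one of their names. The members were chosen by their gene counts in these same 4 groups, so their levels and fold changes are given as a description. How many of them pass the threshold of the fit over all genes is printed beside the share of all genes that does, and supports nothing. Whether groups overlap is likewise only a description, since the share of all genes without overlap was not counted. UFM1 (ENSG00000120686) lies at chr13:38349849-38363619, UFC1 (ENSG00000143222) at chr1:161152776-161158856, UFL1 (ENSG00000014123) at chr6:96521595-96555276 and ODR4 (ENSG00000157181) at chr1:186375838-186421378 in GRCh38. DDRGK1 (ENSG00000198171) lies at chr20:3190350-3204685, CDK5RAP3 (ENSG00000108465) at chr17:47967810-47981781 and UFSP2 (ENSG00000109775) at chr4:185399537-185425979. Tests are kept for splicing, for reads across exon junctions and for other genes of the pathway. The list of other genes was chosen with earlier results of these data known. Junction reads are set against the same gene counts that chose the members, so both are limited.

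The GEMIN5 cells were HEK-293 monolayers transfected with the plasmid pcDNA3Xpress-Gemin5 by Lipofectamine LTX and harvested 24 h later. The control cells carry the label untreated, so the plasmid, the transfection and GEMIN5 itself cannot be told apart. All cells received cycloheximide, which holds ribosomes on mRNA, before lysis. Polyadenylated RNA was sequenced from the cytoplasmic lysate, called Input, and from sucrose gradient fractions 8 to 12, which hold polysomes. The groups were Input GEMIN5 (n = 3), Input control (n = 4), polysome GEMIN5 (n = 4) and polysome control (n = 4). The series describes the samples as independent and biological.

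UFM1 is a small ubiquitin-like protein that is attached to lysines of other proteins, chiefly at the endoplasmic reticulum. After its activation, UFC1 carries it as the conjugating enzyme, and UFL1 transfers it to targets in a complex with DDRGK1, which sits in the endoplasmic reticulum membrane, and CDK5RAP3, an adaptor. The proteases UFSP1 and UFSP2 remove or mature it, and ODR4 holds UFSP2 at the membrane. The best known target is the ribosomal protein RPL26, on ribosomes stalled or docked at the translocon.

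Libraries held 11191417 to 18407933 counted reads. GEMIN5 itself averaged 1428 ± 112 CPM (counts scaled to a common library size and by the trimmed mean of M values, TMM) in Input GEMIN5 and 13.9 ± 1.71 in Input control, and 924 ± 187 in polysome GEMIN5 against 5.80 ± 1.26 in polysome control (SD). The Input GEMIN5 libraries stood apart in composition, with TMM factors of 0.406 ± 0.0723 against 0.990 ± 0.0281 in Input control (SD). With library size as the only scaling, the median gene moved by -1.29 (log2) between Input GEMIN5 and Input control, by 1.78 between polysomes and Input of GEMIN5 cells and by 0.54 in control cells. Liver transcripts were present in Input control replicates 3 and 4 and in all 4 polysome control libraries. The 13 liver markers summed to 14 to 57 counts in the 7 GEMIN5 libraries, to 17 and 28 in Input control replicates 2 and 1, and to 1435 to 2095 in those 6 libraries. The marker CPM that follow are scaled by library size only, without TMM. The 7 blood markers summed to 4.998 to 6.67 CPM in Input GEMIN5, 4.57 to 7.22 in Input control, 5.96 to 7.32 in polysome GEMIN5 and 11.7 to 17.5 in polysome control. The 10 HEK-293 markers summed to 272.7 to 330 CPM in Input GEMIN5, 881 to 1139 in Input control, 507 to 745 in polysome GEMIN5 and 551 to 949 in polysome control. With this scaling the median gene was lower in Input GEMIN5 as well, and the marker sums were not taken with TMM. ALB had 0 counts in the Input GEMIN5 libraries and 0 to 3 in the polysome GEMIN5 libraries.

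With TMM scaling the mRNA of the modifier itself stood highest in Input GEMIN5 of the 4 groups, while with library size only it averaged 38.5 CPM in Input GEMIN5, 27.5 in Input control, 58.1 in polysome GEMIN5 and 50.2 in polysome control. UFM1 had 86.8, 98.9 and 102 CPM in Input GEMIN5, against 30.001, 27.7, 25.7 and 27.8 CPM in Input control. The groups did not overlap, and the log2 fold change was 1.78 (SE 0.10), or 0.49 with library size as the only scaling. UFC1, the conjugating enzyme, had 499, 675 and 605 CPM in Input GEMIN5, against 268, 296, 271 and 248 CPM in Input control. These groups did not overlap either, with a log2 fold change of 1.13 (SE 0.15) that turned to -0.18 with library size as the only scaling.

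By gene counts the ligase complex showed no common direction in Input with TMM scaling, whereas with library size only UFL1 (-1.20), DDRGK1 (-1.79) and CDK5RAP3 (-1.81) all lay lower in Input GEMIN5. UFL1, the ligase, had 1.97 to 3.12 CPM in Input GEMIN5 and 2.39 to 2.76 CPM in Input control, and these values overlapped. Its raw counts were 12 to 28 in Input GEMIN5 and 31 to 47 in Input control, and the log2 fold change was 0.07 (SE 0.34). Reads spliced across its introns numbered 3.03, 0 and 2.06 in Input GEMIN5 and 16.9 to 23.5 in Input control. The gene count of UFL1 in Input GEMIN5 was thus almost without spliced reads, at introns that lie 1992 to 4081 bases from the 3′ end. DDRGK1, the membrane anchor of the ligase, had 98.5, 119 and 95.1 CPM in Input GEMIN5, against 140, 155, 148 and 142 CPM in Input control. The log2 fold change was -0.49 (SE 0.12), or -0.83 without Input GEMIN5 replicate 2, with no overlap of the groups. CDK5RAP3, the adaptor, had 25.8, 32.9 and 24.6 CPM in Input GEMIN5, against 37.6, 41.6, 39.3 and 39.7 CPM in Input control. Its groups did not overlap, and the log2 fold change was -0.51 (SE 0.26).

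Of the deconjugating pair, the anchor was lower and the protease was near its control level by gene counts with TMM scaling. Both depended on position in the mRNA. Spliced reads of ODR4 gave log2 ratios of -2.37 at the first and 0.05 at the last intron in Input with TMM scaling. Those of UFSP2 gave -0.805 and 0.458, with few reads at either first intron. ODR4 had 12.2, 8.85 and 8.83 CPM in Input GEMIN5, against 18.2, 17.4, 14.9 and 15.7 CPM in Input control. These groups did not overlap (log2 fold change -0.72, SE 0.20). UFSP2 had 15.5 to 20.6 CPM in Input GEMIN5 and 17.0 to 19.96 CPM in Input control, overlapping, with a log2 fold change of -0.03 (SE 0.16). It was -0.37 without Input GEMIN5 replicate 2 and -1.33 with library size as the only scaling. Part of UFSP2 is shared with ANKRD37 on the opposite strand over 1092 bases, and whether reads were assigned by strand is not given in the sources used here. ANKRD37 held 30 to 83 counts per library.

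Over the 7 genes, 2 lay higher and 2 lower in Input GEMIN5 at an adjusted p under 0.05 by edgeR's quasi-likelihood test, or 1 higher and 5 lower with library size as the only scaling. Among all 12197 genes tested, 51.5% passed the same threshold, and since gene counts chose the members nothing is read from their count. The median log2 fold change was -0.03 over the 7 genes and -0.01 over all genes. The 4 genes past the threshold were UFM1, UFC1, DDRGK1 and ODR4, and leaving out Input GEMIN5 replicate 2 added CDK5RAP3, at -0.89. A fit of the Input groups alone added it too, at -0.53.

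**Figure D1:**
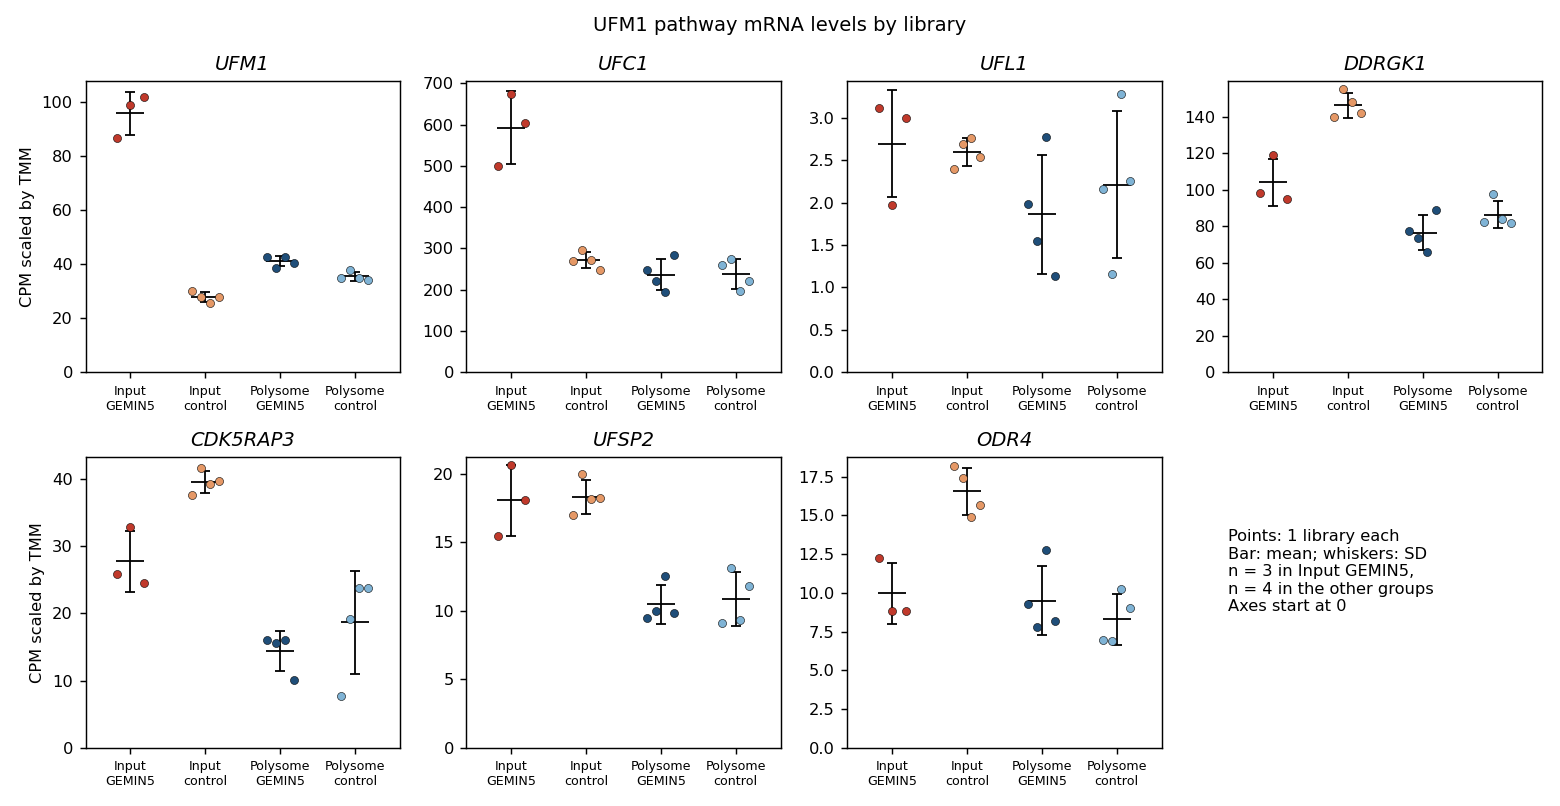
TMM-scaled CPM of the 7 UFM1 pathway genes in each of the 15 libraries (points), with the mean (bar) and SD (whiskers) of Input GEMIN5, Input control, polysome GEMIN5 and polysome control, on axes that start at 0. UFM1 sits at 86.8 to 102 CPM in Input GEMIN5 and at 25.7 to 30.001 CPM in Input control, while its polysome groups lie at 38.7 to 42.5 and 34.1 to 37.9 CPM.

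In polysomes the 7 genes lay close to their control levels. UFM1 had 42.5, 38.7, 42.5 and 40.4 CPM in polysome GEMIN5, against 34.9, 37.9, 34.9 and 34.1 CPM in polysome control. The groups did not overlap, although the difference was small (log2 fold change 0.21, SE 0.10). UFC1 had 193 to 283 CPM in polysome GEMIN5 and 196 to 275 CPM in polysome control, a log2 fold change of -0.01 (SE 0.14) that was 0.00 with RLE size factors. The other 5 genes overlapped between the groups, with log2 fold changes of -0.38 for CDK5RAP3, -0.25 for UFL1, -0.18 for DDRGK1, -0.05 for UFSP2 and 0.20 for ODR4. None of the 7 passed the threshold by edgeR, where 0.402% of all genes did, 49 in number, and 706 of 12197 genes had an unadjusted p under 0.05. The liver markers summed to 14 to 26 counts in the polysome GEMIN5 libraries and to 1506 to 2095 in the polysome control libraries. The part of that RNA in these differences was not tested.

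CDK5RAP3 was scattered among the polysome libraries, although the SE of its log2 fold change there (0.24) was below that of UFL1 (0.29). CDK5RAP3 had 16.1, 15.6, 15.98 and 10.0 CPM in polysome GEMIN5, against 7.68, 19.2, 23.9 and 23.9 CPM in polysome control. Polysome control replicate 1 held 121 raw counts for it, against 366 to 531 in the other 3 libraries of that group. Without that library the log2 fold change was -0.63, in place of -0.38.

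The GEMIN5 effect differed between the fractions for 3 of the 7 genes at an adjusted p under 0.05 by edgeR, where 37.3% of all genes did. The effect in polysomes minus that in Input was -1.57 (SE 0.14) for UFM1, -1.14 (SE 0.21) for UFC1 and 0.91 (SE 0.27) for ODR4. With library size as the only scaling these were -0.27, 0.17 and 2.17, and DDRGK1 passed without Input GEMIN5 replicate 2, at 0.66. As for the fold changes in Input, gene counts chose the members, and no weight is put on this count.

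Compared with Input of the same GEMIN5 cells, polysomes held less of 5 members relative to the median gene. The log2 fold changes from polysomes over Input were -1.33 (SE 0.15) for UFC1, -1.22 (SE 0.10) for UFM1, -0.94 (SE 0.26) for CDK5RAP3, -0.78 (SE 0.16) for UFSP2 and -0.44 (SE 0.12) for DDRGK1. All 5 passed an adjusted p under 0.05 by edgeR, where 67.6% of all genes did, and all 7 genes turned positive, from 0.49 to 1.71, with library size as the only scaling. UFL1 stood at -0.54 (SE 0.34) and ODR4 at -0.08 (SE 0.20). DDRGK1 no longer passed without Input GEMIN5 replicate 2, at -0.20, or in a fit of the compared groups alone, at -0.31, and UFL1 passed without polysome GEMIN5 replicate 3, at -0.81.

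Control cells gave a partly different order. There UFM1 was higher in polysomes than in Input, at 34.1 to 37.9 against 25.7 to 30.001 CPM (log2 fold change 0.35, SE 0.10). It was 0.30 and no longer past the threshold without the 2 Input control libraries that held liver transcripts. Below it came UFC1 at -0.19 (SE 0.14), which was 0.32 with library size only, and UFL1 at -0.22 (SE 0.29), which was 0.32 there. UFSP2, DDRGK1, ODR4 and CDK5RAP3 lay lower in polysomes at -0.76 (SE 0.15), -0.76 (SE 0.11), -0.99 (SE 0.18) and -1.08 (SE 0.24). Their groups did not overlap, and how many of all genes share this was not counted. At an adjusted p under 0.05 by edgeR, 1 member was higher and 4 were lower, where 43.2% of all genes passed.

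**Figure D2:**
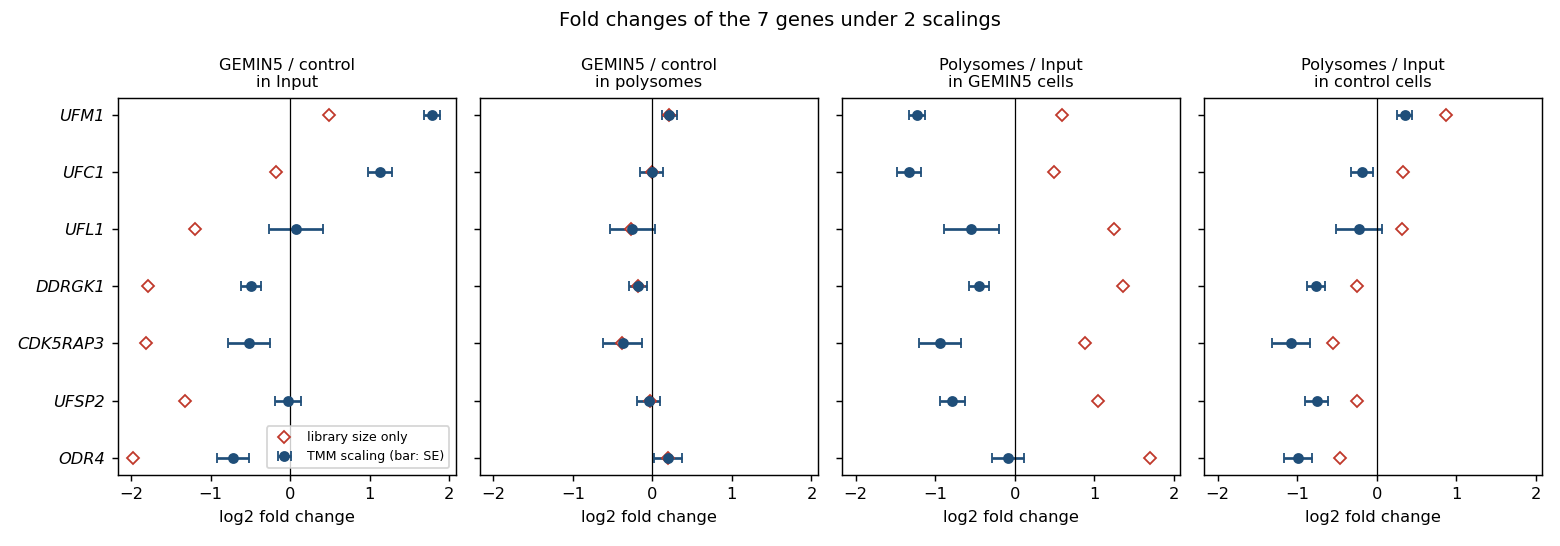
Log2 fold changes of the 7 genes, GEMIN5 over control in Input and in polysomes and polysomes over Input in GEMIN5 and in control cells, with TMM scaling (filled points, bars are SE) and with library size only (open diamonds). The scalings lie together in polysomes and about 1.3 apart in Input, where UFM1 stays above 0 with both (1.78 and 0.49), UFC1 and UFL1 do not (1.13 and -0.18, 0.07 and -1.20), and all 7 genes change sides of 0 between polysomes and Input of GEMIN5 cells.

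Per kilobase of the transcript used for each gene, the conjugating enzyme was by far the most abundant of the 7 mRNAs and the ligase the least. UFC1 stood at 532 ± 79.4 TMM-scaled CPM per kilobase in Input GEMIN5, 243 ± 17.5 in Input control, 212 ± 34.4 in polysome GEMIN5 and 214 ± 32.3 in polysome control (SD). DDRGK1 followed in all 4 groups, at 58.6 to 112 CPM per kilobase. UFL1 was last in all 4 groups, at 0.440 to 0.637 CPM per kilobase, with ODR4 above it at 2.18 to 4.36. Between them the order moved: UFM1 stood next after DDRGK1 in Input GEMIN5 at 30.6 ± 2.56 CPM per kilobase, while in Input control it stood at 8.87 ± 0.556, below CDK5RAP3 at 21.2 ± 0.882 and UFSP2 at 11.2 ± 0.758 (SD). In polysome GEMIN5, UFM1 stood at 13.1 ± 0.582 and CDK5RAP3 at 7.73 ± 1.57 CPM per kilobase, with no overlap. In polysome control, UFM1 at 11.3 ± 0.541 and CDK5RAP3 at 10.0 ± 4.09 CPM per kilobase did not differ beyond their spread (SD). The order rests on the length of the long UFM1 transcript, 3138 bases.

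Correlations between the 7 genes across the 15 libraries were taken on the log2 CPM scale. UFM1 and UFC1 had a Pearson r of 0.84, and the pairs among DDRGK1, CDK5RAP3, UFSP2 and ODR4 had r of 0.61 to 0.83. UFM1 with DDRGK1, CDK5RAP3 and ODR4 gave -0.23, -0.06 and -0.35, while UFC1 with UFSP2 and UFL1 with ODR4 each gave 0.59. These libraries share their 4 groups, so the values describe group differences as much as any finer variation. Among all genes tested, MCFD2 (r = 0.990), TOMM20 (0.980) and ZNF791 (0.976) were most like UFM1, and ERMP1 (0.885) and EDRF1 (0.852) were among the 3 most like UFL1.

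The other pathway genes comprised 9 symbols, of which 8 were tested. In Input GEMIN5 against Input control, 4 rose (SEC61G, SEC61B, SAYSD1 and UFSP1) and 2 fell, CYB5R3 among them, at an adjusted p under 0.05 by edgeR over all genes, where 51.5% of all genes passed. With library size as the only scaling 2 of the 8 were higher and 6 lower. SEC61G and SEC61B are small subunits of the translocon, SAYSD1 binds modified ribosomes at it, and CYB5R3 is a reported target. None of the 8 passed in polysomes, and against Input of the same cells 2 rose and 6 fell in GEMIN5 cells and 3 fell in control cells, where 67.6% and 43.2% of all genes passed. The median log2 fold change of the 8 in Input was 0.42. This list was chosen with earlier results of these data known, so its counts are a description.

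UFSP1, the smaller protease, had 8.79, 8.03 and 7.79 CPM in Input GEMIN5, against 3.62, 6.48, 5.38 and 6.24 CPM in Input control. The rise of 0.59 (log2, SE 0.22, adjusted p = 0.0296 by edgeR) turned to -0.68 with library size only. It lost the threshold in 5 of the 7 fits that left out 1 compared library, those without Input GEMIN5 replicate 1, 2 or 3 and without Input control replicate 1 or 3, where the adjusted p was 0.0525 to 0.265. It did so too with RLE scaling (0.0533), DESeq2 (0.0522) and no filter on low counts (0.0749).

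RPL26, the ribosomal target, was nearly absent from the gene counts, at 0 to 5 per library, while the splicing table held many reads across its introns. Those numbered 97369 to 103406 per library in Input GEMIN5, 35174 to 48548 in Input control, 23670 to 28752 in polysome GEMIN5 and 20946 to 33900 in polysome control. In the annotation RPL26 shares 5672 bases with ENSG00000263809 on the same strand, which itself had 0 to 2 counts. No fold change of RPL26 is given from the gene counts.

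Reads across exon junctions, from the splicing table, gave another measure of the members in the same libraries. It is set here against the gene count that chose the members, so it does not stand apart from that choice. The reads that skipped each annotated intron were summed over a gene and divided by its gene count. UFM1 had 104, 110 and 110 spliced reads per 100 gene counts in Input GEMIN5, against 54.0, 60.5, 68.8 and 59.1 in Input control. The polysome libraries lay at 42.3 to 65.2 in GEMIN5 cells and 44.4 to 61.7 in control cells. Input GEMIN5 thus stood above all 12 other libraries, with more spliced reads than counts. A read that crosses several introns is summed at each, in every library, and how many did so was not measured.

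The log2 ratio of spliced reads to counts of UFM1 was 0.84 higher in Input GEMIN5 than in Input control, where the median of 5901 genes was -0.13 and 0.780% of them had a larger difference. A two-sided exact permutation test over the 7 libraries gave p = 0.0571, the smallest that 3 against 4 libraries allow. Adjusted over the 28 tests of 7 genes in 4 comparisons it was 0.267. A smallest p of 0.0571 lies above the threshold of 0.05 even before adjustment, so no gene could pass against Input GEMIN5. The test cannot decide on any difference from Input GEMIN5, and no conclusion is drawn from it there. In GEMIN5 cells the same ratio was 1.04 lower in polysomes than in Input (exact permutation p = 0.0571, adjusted 0.267), and between polysome GEMIN5 and polysome control it differed by -0.01 (exact permutation p = 0.943). The other members measured had differences in Input of -0.07 for UFC1, -0.19 for DDRGK1, -0.32 for CDK5RAP3, -0.09 for UFSP2 and -0.14 for ODR4. Of these, DDRGK1 and CDK5RAP3 had groups that did not overlap (exact permutation p = 0.0571 each, adjusted 0.267). Of the 5901 genes, 58.4% had a higher difference than DDRGK1 and 71.8% a higher one than CDK5RAP3. How many of all genes lack overlap was not counted, so nothing is read from it for these members.

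**Figure D3:**
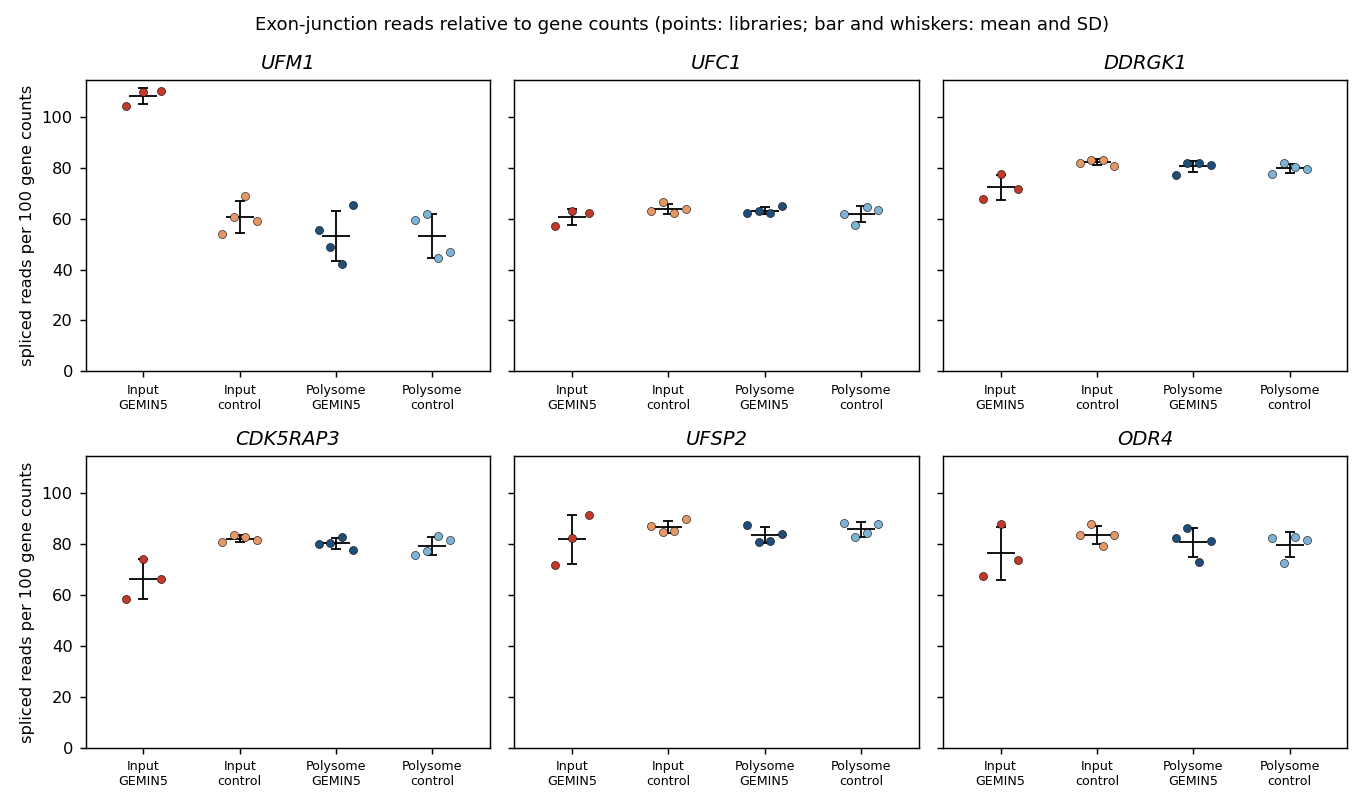
Spliced reads per 100 gene counts in each of the 15 libraries (points; bar and whiskers are mean and SD) for 6 of the 7 genes, on axes that start at 0. UFM1 is at 108 ± 3.12 in Input GEMIN5 and at 60.6 ± 6.15 in Input control, and no other gene shows Input GEMIN5 above Input control without overlap.

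Among the genes most like UFM1, TOMM20 had 73.9 spliced reads per 100 counts in Input GEMIN5 and 58.3 in Input control, and MCFD2 had 49.1 and 43.6. UFL1 was not tested on this measure, since it had 3.03, 0 and 2.06 spliced reads over its 18 introns in Input GEMIN5 and 16.9 to 23.5 in Input control. Its 28, 12 and 20 gene counts in Input GEMIN5 were thus almost without spliced reads, at 0 to 10.8 per 100 counts against 42.7 to 58.7 in Input control. All 18 introns of UFL1 lie 1992 to 4081 bases from the 3′ end. Those of ODR4, at 2370 to 3686 bases, also held fewer reads in Input GEMIN5 at the far end. The part of this distance in the few spliced reads of UFL1 was not tested.

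A pair of UFM1 transcripts with 3138 and 846 bases was compared, and they end at positions 38363619 and 38361125 of chromosome 13. The 5 junctions lie 2909 to 3097 bases from the long end and 415 to 603 bases from the short end. Which end the reads came from was not measured. At each of the 5 junctions Input GEMIN5 held more reads than Input control, as at the first intron with 143, 146 and 144 reads in Input GEMIN5 and 36.0, 48.5, 48.0 and 49.0 in Input control. With TMM scaling the log2 ratios ran from 2.40 to 2.74, and with library size only from 1.11 to 1.44.

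Junctions far from the 3′ end of the mRNA had fewer reads in Input GEMIN5 than near it, relative to Input control, in 4 members. DDRGK1 had 61.5 to 78.5 reads at its first intron in Input GEMIN5 and 265 to 422 in Input control, but 88.5 to 109 and 161 to 208 at its last intron. The first intron lies 1157 bases from the 3′ end and the last 470 bases. The log2 ratio with TMM scaling was -1.09 at the first and 0.12 at the last intron, a step of -1.20. The same step was -2.66 over the 13 introns of CDK5RAP3, -1.26 over the 11 of UFSP2 and -2.42 over the 13 of ODR4. With library size as the only scaling, every intron of these 4 genes was lower in Input GEMIN5. In polysomes the step was 0.03, -0.06, -0.43 and 0.14 for DDRGK1, CDK5RAP3, UFSP2 and ODR4.

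The share of the first junction among the reads of the first and last junction put the same values within each library. It was 42.9% ± 3.66 in Input GEMIN5 and 63.4% ± 2.50 in Input control for DDRGK1, 2.82% ± 2.60 and 18.3% ± 6.47 for CDK5RAP3, 3.44% ± 3.12 and 27.2% ± 8.74 for ODR4, and 13.9% ± 10.2 and 27.3% ± 7.18 for UFSP2 (SD). UFC1, whose 5 junctions lie within 445 to 745 bases of the end, had 43.4% ± 3.14 and 47.1% ± 1.22 (SD). UFM1 had 50.3% ± 7.24 in Input GEMIN5 and 45.4% ± 3.86 in Input control (SD). First-junction reads of CDK5RAP3 and ODR4 numbered 0 to 2 and 0 to 1.03 per library in Input GEMIN5, so these shares rest on few reads.

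**Figure D4:**
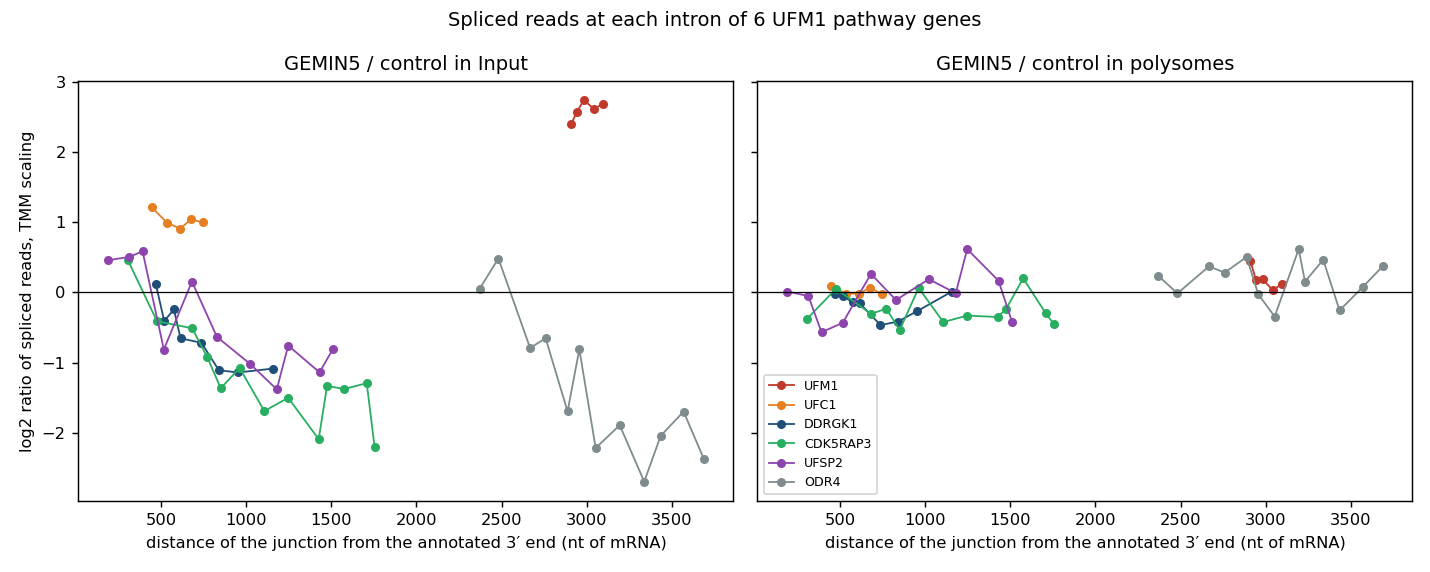
Log2 ratio of spliced reads, GEMIN5 over control with TMM scaling, at introns of 6 UFM1 pathway genes (points, joined within a gene) against the distance of the junction from the annotated 3′ end in bases of mRNA, in Input (left) and in polysomes (right). The ratio is the difference of mean log2 scaled reads with a small constant added. Introns without reads in a compared group are not drawn. In Input, the first intron lies below the last in DDRGK1, CDK5RAP3, UFSP2 and ODR4 (every intron of these is below 0 with library size only), UFC1 stays at 0.91 to 1.21 and UFM1 at 2.40 to 2.74, and with library size only UFC1 drops to -0.39 to -0.09 while UFM1 keeps 1.11 to 1.44.

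Splicing of the members showed no difference that passed a test. Between Input GEMIN5 and Input control, 98 of the 296 events reached 10 corrected reads throughout. In 37 of these every inclusion level (PSI, percent spliced in) was over 95%, and in 55 it was under 5%, which left 6 to test. No member event passed an adjusted p under 0.05 by limma on log2 odds in any of 4 comparisons. That was 0 of 6 between Input GEMIN5 and Input control, where 4.29% of 11930 events passed, and 0 of 12 between the polysome groups, where 0% of 17485 passed and 859 had an unadjusted p under 0.05. It was 0 of 9 between polysomes and Input in GEMIN5 cells, where 5% of 11943 passed, and 0 of 9 in control cells, where 0.0186% of 16106 passed. The tested events came from UFC1, UFSP2 and ODR4.

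The best covered of the tested events was exon 5 of UFC1, 91 bases on the plus strand at chr1:161158121-161158211, chosen after its values were seen. It is shown because it had the most reads of the tested events of the pathway. Its length is not a multiple of 3.
UFC1 exon 5: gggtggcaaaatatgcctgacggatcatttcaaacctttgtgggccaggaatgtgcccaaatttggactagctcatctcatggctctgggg
PSI was 93.9% ± 1.22 in Input GEMIN5, 95.3% ± 0.588 in Input control, 95.1% ± 0.962 in polysome GEMIN5 and 94.95% ± 0.774 in polysome control (SD), on 830 to 1325 reads per library. The difference in Input, -1.42 points, did not pass (limma, adjusted p = 0.669).

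UFC1 also had a 5′ splice site 50 bases upstream of the main one, at position 161154070 in place of 161154120. Its PSI was 3.44% ± 1.65 in Input GEMIN5, 1.65% ± 0.513 in Input control, 0.975% ± 0.237 in polysome GEMIN5 and 0.728% ± 0.191 in polysome control (SD). This rested on 2.82 to 24.6 reads for the upstream site and 370 to 636 reads in all. The largest contrast, polysomes against Input in GEMIN5 cells, was -2.47 points, with an unadjusted limma p of 0.0151 and an adjusted p of 0.114. The main site mirrored it at 99.0% in polysome GEMIN5 and 96.4% in Input GEMIN5 (limma, adjusted p = 0.169).

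ODR4, listed in the splicing table under its older name C1orf27, had a rarely included exon of 78 bases at chr1:186411816-186411893. Its PSI was 7.62% ± 4.48 in Input GEMIN5, 5.62% ± 3.30 in Input control, 5.60% ± 4.02 in polysome GEMIN5 and 6.18% ± 7.38 in polysome control (SD), on 14 to 39 reads, with no adjusted p under 0.551 by limma. A 91-base exon of ODR4 was at 96.2% ± 7.52 in polysome control and 100% in Input control (limma, adjusted p = 0.646), and a 69-base exon was at 97.7% ± 4.70 in polysome GEMIN5 and 100% in polysome control (limma, adjusted p = 0.968). In UFSP2, a 3′ splice site 28 bases upstream of the main one was used at 2.78% in polysome GEMIN5 and 0% in polysome control, from 0 to 2 reads per library (limma, adjusted p = 0.968).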

How the data were processed

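The deposited gene counts are raw reads per gene and library, made with GRCh38. The submitters' processing notes name the aligner STAR (2.7.10a) and the counter featureCounts. Whether strand was used in counting is not stated. Deposited percent spliced in values (PSI) and the corrected inclusion and exclusion read numbers come from 1 table of events on hg38, per the file headers.

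The 7 members and all gene lists were chosen with earlier results of these data known. Gene names were matched by Ensembl identifier, and 21494 of 21519 matched. Counts were fitted once over 15 libraries with edgeR 4.0.16 (R 4.3.3): filterByExpr with its minimum count of 10, TMM scaling, robust quasi-likelihood tests and Benjamini-Hochberg adjustment at 0.05 over 12197 genes. Events needed 10 corrected reads in every compared library and a PSI range not wholly over 95% or under 5%. They were tested with limma 3.58.1 on log2 odds, after adding 0.5 to inclusion and exclusion reads. Spliced reads are the exclusion reads of the intron events that match the introns of 1 transcript per gene. Log2 ratios at single introns are differences of mean log2 scaled reads between groups. A small constant was added so that introns without reads have a value, and ratios at introns with few reads depend on it. Their ratios to gene counts were compared by exact permutation tests, with p adjusted over 28 tests. A spliced read can cross several introns and then counts at each. SE is the fold change divided by the root of the F statistic. The procedures were tested on simulated data. Some items that these rules would name are not reported here.

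Equal replicate numbers are not said to be 1 culture, so they were not used to pair the samples. No 2 libraries of a group agreed within sampling noise. Named were the 7 members, UFSP1, RPL26, the genes among the 3 most like UFM1 and UFL1, and the 3 events with the largest PSI difference in each comparison. Markers of liver (13), blood (7) and HEK-293 cells (10) and other ubiquitin-like modifiers (11) and their enzymes (12) were counted. Alternatives were RLE scaling, library size only, no filter, DESeq2 1.42.0, fits of the compared groups alone, a replicate block and leaving out each library. Leaving out the 2 Input control libraries with liver transcripts was chosen after seeing the data.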

Additional observations from a re-analysis of the deposited data

Results flagged for a closer look

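The GEMIN5 effect differed between polysomes and Input for 3 members by the interaction term of edgeR's quasi-likelihood fit. The difference, polysomes minus Input on the log2 scale, was -1.57 for UFM1, -1.14 for UFC1 and 0.91 for ODR4, and 37.3% of all genes passed the same test. Gene counts chose these members, so this is a description and no weight is put on it.

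Single libraries stood far from the others of their group by Dixon's ratio in 5 of 42 sets of 4 libraries, where chance gives about 1 in 20. DDRGK1 had 97.6 CPM in 1 polysome control library, where the other 3 lay at 81.7 to 84.0. CDK5RAP3 had 10.0 CPM in polysome GEMIN5 replicate 4, where the others had 15.6 to 16.1. UFSP2 had 12.5 CPM in polysome GEMIN5 replicate 3, where the others had 9.50 to 9.96. DDRGK1 had 77.2 spliced reads per 100 counts in 1 polysome GEMIN5 library, and ODR4 had 72.4 in 1 polysome control library.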

How the results depend on the processing

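Library size as the only scaling moved the median gene of Input GEMIN5 and changed more results than any other alternative run. With it, UFC1 stood at -0.18 in Input and UFSP1 at -0.68, and the difference of the GEMIN5 effect was 0.17 for UFC1. Polysomes over Input in GEMIN5 cells gave 0.59 for UFM1, 0.49 for UFC1, 1.36 for DDRGK1, 0.88 for CDK5RAP3, 1.05 for UFSP2 and 0.97 for UFSP1. In control cells 3 members passed in place of 5. For the difference of the GEMIN5 effect, 7 other pathway genes passed in place of 3.

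Leaving out 1 library in turn, the members past the threshold numbered 4 to 5 in Input, 0 in polysomes, 3 to 4 for the difference, 4 to 6 for polysomes against Input in GEMIN5 cells and 5 in control cells. The other pathway genes numbered 4 to 6, 0, 3 to 5, 7 to 8 and 2 to 3, and 5 passed for the difference without polysome GEMIN5 replicate 4. No member event passed under any alternative.

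The replicate block left the members past the threshold at 4 in Input, 0 in polysomes, 3 for the difference and 5 in both polysome against Input comparisons. Numbers were not taken as pairs: 4 of 15 libraries correlated best with their own number, and 4 of 21 pairs had a correlation over 0.1. UFL1, with 12 to 73 counts per library, is limited by depth. Intervals and SE cover the spread among these libraries only.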

Other observations

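Among the 11 other ubiquitin-like modifiers, 9 were tested in Input GEMIN5 against Input control, and 6 rose and 1 fell at an adjusted p under 0.05 by edgeR over all genes, with a median log2 fold change of 0.76. Over all genes 51.5% passed. Of the 12 enzymes of those systems 11 were tested, and 2 rose and 5 fell, with a median of -0.15. These directions are relative to the median gene, which moved by -1.29 with library size as the only scaling, and these lists were not counted with that scaling. In polysomes none of the 9 modifiers and none of the 11 enzymes passed by edgeR. Like RPL26, the genes NEDD8, GABARAP and UBE2F were left out by the filter on low counts.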
